A study of Homo sapiens with 16 samples.

Results

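The difference between the LAN-1 and Kelly lines in their RNA response to 5 days of GSK126 was measured in 8 of the 16 libraries of the series, namely every library collected at day 5. The quantity was the log2 fold change of GSK126 over DMSO in LAN-1 minus the same fold change in Kelly, called the interaction here. A positive interaction means that the LAN-1 effect lay above the Kelly effect. A gene is said to rise or fall in a line by its GSK126 level against DMSO of the same day. The DMSO levels could also differ between days. The groups were LAN-1 with 2 uM GSK126, LAN-1 with DMSO, Kelly with 2 uM GSK126 and Kelly with DMSO, with 2 libraries in each at day 5. The other 8 libraries held the same 4 groups at day 2. Both lines are established neuroblastoma cultures with amplified MYCN, and the series deals with EZH2 in such tumours. Each line stands for 1 tumour, so line and patient of origin cannot be told apart. The labels do not say that duplicates were separate cultures, so p-values measure only the spread between these samples.

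EZH2 is the catalytic subunit of Polycomb repressive complex 2 (PRC2), which places methyl groups on lysine 27 of histone H3 and keeps developmental genes silent. GSK126 competes with the methyl donor of EZH2, and loss of the mark can release silenced genes over days as histones are diluted by division. Neuroblastoma arises from the sympathoadrenal lineage, and its cells hold a mixture of adrenergic genes (transcription factors such as HAND2 and PHOX2A, enzymes of catecholamine synthesis, granins) and mesenchymal genes (VIM, YAP1, NOTCH2).

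Promoters are shown for the pair of genes that carried the clearest opposite response, CHGA and IGFBP2, which rose in LAN-1 and fell in Kelly. CHGA encodes chromogranin A, a protein of catecholamine storage vesicles, and IGFBP2 encodes a secreted protein that binds insulin-like growth factors. The sequences are RefSeq's on GRCh38.p14, plus strand, 250 bases before the start of each gene, at chr14:92922900-92923149 for CHGA and chr2:216632578-216632827 for IGFBP2. Capitals mark TGACGTCA, the full cAMP response element.
CHGA: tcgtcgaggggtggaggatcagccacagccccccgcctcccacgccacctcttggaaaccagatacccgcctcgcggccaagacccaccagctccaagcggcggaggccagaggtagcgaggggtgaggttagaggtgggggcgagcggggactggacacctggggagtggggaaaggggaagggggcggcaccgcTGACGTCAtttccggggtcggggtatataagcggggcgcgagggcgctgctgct
IGFBP2: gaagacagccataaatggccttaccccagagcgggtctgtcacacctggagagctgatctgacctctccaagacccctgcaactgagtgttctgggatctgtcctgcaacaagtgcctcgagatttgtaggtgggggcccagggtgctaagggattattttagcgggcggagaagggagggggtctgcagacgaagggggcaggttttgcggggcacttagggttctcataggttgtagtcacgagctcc
The CHGA stretch held 21 CpG dinucleotides and 1 TGACGTCA, and the IGFBP2 stretch held 7 CpG dinucleotides and none of the motifs searched. The search covered 250 bases before to 50 bases after the start, on both strands, for TGACGTCA, for the E-box CACGTG and for CAGCACC, a core of the element bound by REST. The motifs do not overlap each other, and they were chosen after expression values were seen. TGACGTCA stood in 1.98% of 27305 promoters in the RefSeq table and in 3.77% of the 6869 matched genes that both lines expressed. It stood in 6.94% of the 72 matched genes with a called positive interaction and in 4.76% of the 42 with a called negative one. CACGTG was in 9.72% and 11.9% of those sets, against 11.3% of the expressed genes. CAGCACC was in 5.56% and 4.76%, against 7.1%. A match is a description of the letters and not a binding site.

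The 8 libraries held 912095 to 1666190 counts assigned to genes, with the smallest total in LAN-1 GSK126 replicate 2. The LAN-1 GSK126 replicates also differed in base composition. The log2 difference of replicate 2 from replicate 1 correlated with gene GC content at r = 0.432 across 8732 genes. The same value was -0.241 for Kelly GSK126, 0.16 for Kelly DMSO and 0.0691 for LAN-1 DMSO. At day 2 it was 0.393 for Kelly DMSO, -0.293 for LAN-1 DMSO, 0.176 for LAN-1 GSK126 and -0.105 for Kelly GSK126. A pair cannot show which of its libraries deviated. All 12 markers listed for neuroblastoma lines had reads in every group, but TH and DBH, which define catecholamine synthesis, were close to absent in LAN-1. Summed fibroblast markers ran 132 to 145 CPM (library-scaled counts per 1e6) in LAN-1 GSK126, 92.4 to 101 CPM in LAN-1 DMSO, 202 to 206 CPM in Kelly GSK126 and 146 to 161 CPM in Kelly DMSO, with COL1A2 and FAP at 0 in all. Summed Schwann cell markers were 16.8 to 20.9 CPM in LAN-1 GSK126, 5.88 to 7.66 CPM in LAN-1 DMSO, 87.1 to 94.3 CPM in Kelly GSK126 and 59.6 to 65.8 CPM in Kelly DMSO, with S100B, FOXD3 and CDH19 at 0. EZH2, the target, had 109 and 100.3 CPM in LAN-1 GSK126, 127 and 135 CPM in LAN-1 DMSO, 182 and 179 CPM in Kelly GSK126, and 233 and 207 CPM in Kelly DMSO, with an interaction of -0.03 ± 0.18 (SE; edgeR quasi-likelihood test, adjusted p = 0.984). The sign of the EZH2 value turned under several alternatives, the highest being 0.14 with a GC correction.

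At day 5 the interaction was called for 220 of 11863 genes tested (1.85%) at a Benjamini-Hochberg adjusted p under 0.05 in edgeR's quasi-likelihood test. Positive interactions made up 109 of these (0.919%) and negative ones 111 (0.936%). A gene was counted as expressed in both lines where its mean reached 10 CPM in the day 2 DMSO libraries of each line, which do not enter the day 5 contrast. Among the 8810 genes expressed in both lines, 144 were called (1.63%), 97 of them positive (1.1%) and 47 negative (0.533%). Their median absolute interaction was 0.83 on the log2 scale, the smallest was 0.395, and 51 passed 1. In 143 of the 144 the fold changes of the 2 lines did not overlap over all pairings of libraries, a separation that 14.3% of expressed genes showed in the positive and 13.5% in the negative direction.

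The called genes fell into a few patterns. GSK126 moved 62 of the 144 in Kelly alone by the test, 39 of them falling and 23 rising there. It moved 53 in LAN-1 alone, 43 of them rising and 10 falling. Only 4 genes passed in opposite directions (0.0454% of the genes expressed in both lines), another 4 rose in both lines by different amounts, and 21 passed in neither line by itself. Within each line, 367 of the 8810 genes were called in LAN-1 (4.17%; 226 rose, 2.57%, and 141 fell, 1.6%) and 352 in Kelly (4%; 178 rose, 2.02%, and 174 fell, 1.98%), with 53 called in both in the same direction (0.602%).

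A gene called in 1 line was therefore not usually shown to differ between lines. Of the 310 genes called in LAN-1 and not in Kelly, 53 had a called interaction, and of the 295 called in Kelly and not in LAN-1, 62 had one. The Kelly effect had the sign of the LAN-1 effect for 73.3% of the LAN-1 calls, and the LAN-1 effect had the sign of the Kelly effect for 65.9% of the Kelly calls, against 53.5% over all genes expressed in both. Across the 8810 genes the fold changes of the lines correlated weakly, with Pearson's r = 0.142 and Spearman's rho = 0.0998. Those genes are not independent replicates, and the lines share no library. The spread of fold changes was similar, with an SD of 0.309 in LAN-1 and 0.287 in Kelly. In 105 of the 144 called genes (72.9%) the interaction ran against the difference between the lines in day 2 DMSO, being positive where LAN-1 had less than Kelly or negative where it had more, against 54.1% of all genes expressed in both.

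**Figure D1:**
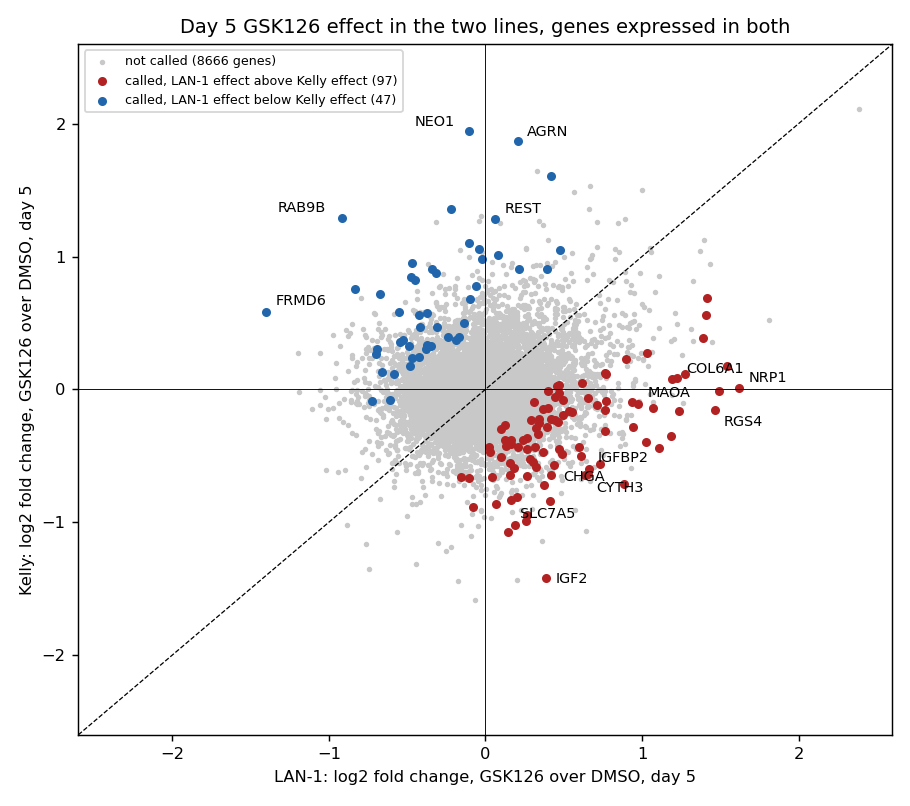
Each point is 1 of 8810 genes expressed in both lines, with the day 5 log2 fold change of GSK126 over DMSO in LAN-1 on the horizontal and in Kelly on the vertical axis. The dashed line marks equal effects. Red points are the 97 called positive interactions, many of them at a Kelly fall with little LAN-1 change or a LAN-1 rise with little Kelly change, and blue points are the 47 negative ones.

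The counts depended on single libraries. Without LAN-1 GSK126 replicate 2, the smallest library, 78 genes expressed in both lines were called, 55 positive and 23 negative. Without LAN-1 GSK126 replicate 1 the count was 396, with 218 positive and 178 negative. Leaving out Kelly DMSO replicate 2 gave 75, Kelly GSK126 replicate 2 gave 73, LAN-1 DMSO replicate 1 gave 79 and LAN-1 DMSO replicate 2 gave 93. By DESeq2 the count was 34. The LAN-1 calls over all genes numbered 735 without LAN-1 GSK126 replicate 1, 153 without replicate 2, and 139 or 145 without LAN-1 DMSO replicate 1 or 2. The Kelly calls numbered 355 or 239 without Kelly DMSO replicate 1 or 2, 304 or 280 without Kelly GSK126 replicate 1 or 2, and 980 with a GC correction. Of the 66 called genes chosen for naming, 22 stayed called in each of the 8 fits with 1 library left out, and all 22 were also called by DESeq2. These were CHGA, IGF2, IGFBP2, CYTH3, MYCN, HK2, ALDOA, SLC7A5, RGS4, NRP1, MAOA, HAND2, CNTNAP2 and COL6A1 on the positive side, and NEO1, AGRN, YBX3, SNX10, INSR, LOC440416, NOTCH2 and PHLDA1 on the negative side.

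The genes called in opposite directions were CHGA, IGFBP2, CYTH3 and FTL, and each rose in LAN-1 and fell in Kelly. Their number was 18 without LAN-1 GSK126 replicate 1, 2 without replicate 2, 0 and 2 without LAN-1 DMSO replicate 1 or 2, and 2 and 1 without Kelly GSK126 replicate 1 or 2. CHGA (GRCh37 chromosome 14, 93389495 to 93401630) had 339 and 353 CPM in LAN-1 GSK126, 249 and 259.7 CPM in LAN-1 DMSO, 1892 and 1795 CPM in Kelly GSK126, and 2643 and 2827 CPM in Kelly DMSO. The treated libraries lay above the controls in LAN-1 and below them in Kelly, with no overlap, while Kelly stayed far above LAN-1 throughout. The fold changes were 0.44 in LAN-1 and -0.57 in Kelly, giving an interaction of 1.01 ± 0.13 (SE; edgeR, adjusted p = 3.03e-09). IGFBP2 (chromosome 2, 217497551 to 217529159) had 81.8 and 92.6 CPM in LAN-1 GSK126, 48.1 and 62.2 CPM in LAN-1 DMSO, 100.8 and 89.4 CPM in Kelly GSK126, and 132 and 154 CPM in Kelly DMSO. The lines overlapped under GSK126, whereas both Kelly libraries lay above both LAN-1 libraries under DMSO, and the interaction was 1.26 ± 0.22 (SE; adjusted p = 4.13e-05).

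CYTH3 (chromosome 7, 6201410 to 6312275), an exchange factor for ARF GTPases that acts downstream of phosphoinositide signalling, had 70.7 and 79.3 CPM in LAN-1 GSK126, 49.4 and 44.5 CPM in LAN-1 DMSO, 59.0 and 58.1 CPM in Kelly GSK126, and 103.9 and 80.2 CPM in Kelly DMSO. At day 5 LAN-1 thus lay above Kelly under GSK126 and below it under DMSO. The Kelly means were 58.5 CPM with GSK126 and 92.1 CPM with DMSO at day 5, against 68.1 and 57.8 CPM at day 2. The Kelly control was thus higher at day 5 than at day 2. The LAN-1 means at day 2 were 55.5 CPM with GSK126 and 49.0 CPM with DMSO. The CYTH3 interaction at day 5 was 1.29 ± 0.25 (SE, edgeR adjusted p = 2.82e-04). FTL, the ferritin light chain that stores iron, had an interaction of 0.61 ± 0.13 (SE; adjusted p = 0.00167). In LAN-1 GSK126 it stood at 647 CPM in replicate 1 and at 935 CPM in replicate 2, which sets replicate 2 apart, and without that library the adjusted p was 0.178. FTL had 597.5 and 655.5 CPM in LAN-1 DMSO, so LAN-1 GSK126 replicate 1 lay within the control range. FTL also has near-identical pseudogenes, so its counts are uncertain.

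**Figure D2:**
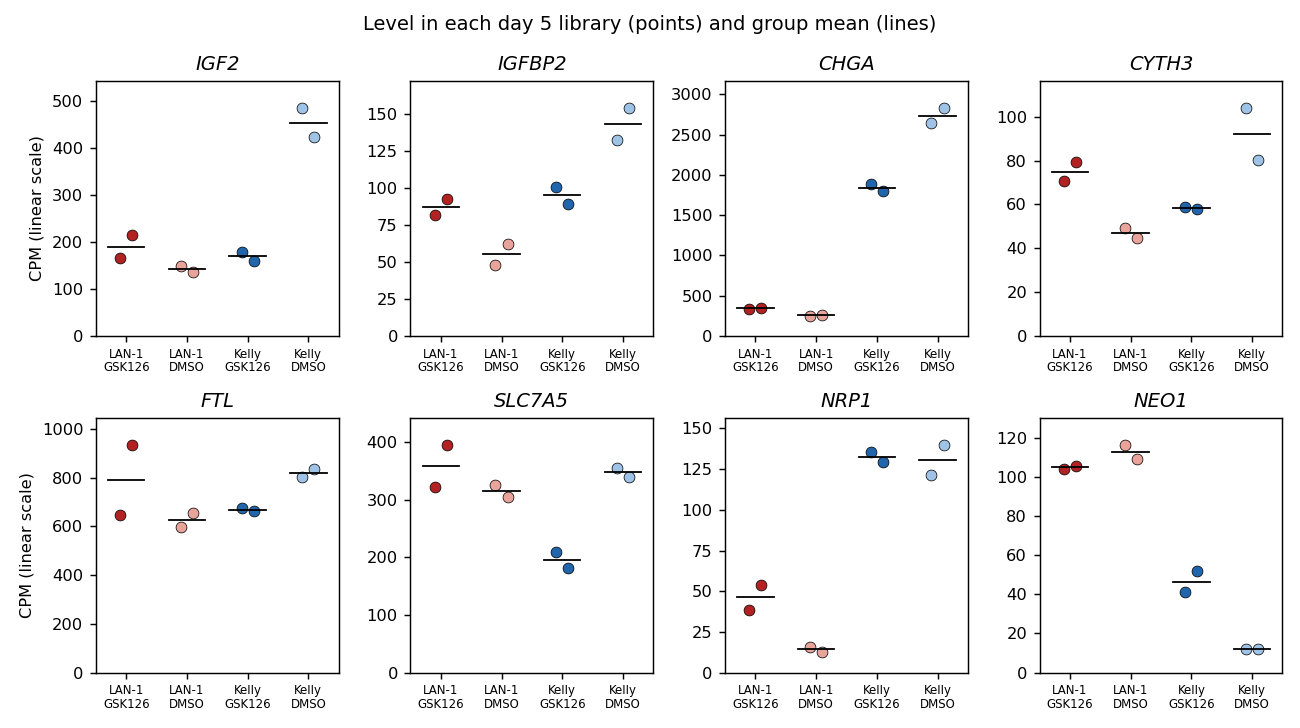
CPM on a linear scale starting at 0 for 8 genes in each day 5 library (points) with the mean of each group of 2 (lines). CHGA, IGFBP2 and CYTH3 lie higher under GSK126 than DMSO in LAN-1 and lower in Kelly, NRP1 is higher in LAN-1 GSK126 alone (38.5 and 54.0 CPM, against 16.0 and 12.6 CPM in DMSO), and NEO1 is higher in Kelly GSK126 than in Kelly DMSO.

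The largest positive interaction among called genes expressed in both lines was at IGF2, the insulin-like growth factor 2 ligand, an imprinted gene that is strongly expressed in fetal tissue (chromosome 11, 2150342 to 2179621). It had 167 and 214 CPM in LAN-1 GSK126, 149 and 135 CPM in LAN-1 DMSO, 179.5 and 159 CPM in Kelly GSK126, and 484 and 423 CPM in Kelly DMSO. Kelly fell by 1.42 on the log2 scale, to about the LAN-1 level, and LAN-1 had a fold change of 0.39 that did not pass (edgeR, adjusted p = 0.088). The interaction was 1.81 ± 0.18 (SE; adjusted p = 1.79e-13), and the highest adjusted p with any library left out was 1.28e-09. IGF2 overlaps other annotated transcripts, so reads from them cannot be separated from its own.

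The gene lists here and below were chosen with earlier results of these data known. Their shares of calls are therefore a description and not independent support. The list of the insulin-like growth factor axis and imprinted genes had 14 members expressed in both lines. Of these, 3 had a called positive interaction and none a negative one (against 1.1% and 0.533%). The 3 were IGF2 and IGFBP2, already described, and DLK1. The median interaction was 0.39, against -0.0005 over all genes expressed in both. The list's medians were 0.32 in LAN-1 and -0.08 in Kelly. DLK1, an imprinted inhibitor of differentiation related to NOTCH ligands, had 25.2 and 29.8 CPM in LAN-1 GSK126, 20.2 and 27.7 CPM in LAN-1 DMSO, 740.2 and 681 CPM in Kelly GSK126, and 1456 and 1427 CPM in Kelly DMSO. DLK1 thus fell in Kelly (-1.02 on the log2 scale), and the interaction of 1.21 ± 0.28 (SE; edgeR, adjusted p = 0.0037) was lost without LAN-1 DMSO replicate 1 (adjusted p = 0.137).

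Of 14 adrenergic transcription factors expressed in both lines, 2 rose and none fell in LAN-1, and 2 rose and 3 fell in Kelly. Over all genes expressed in both, 2.57% rose and 1.6% fell in LAN-1, and 2.02% rose and 1.98% fell in Kelly. Of these factors, 3 had a called positive interaction, HAND2 and PHOX2A among them, and none a negative one (against 1.1% positive and 0.533% negative), and the median interaction was 0.31. HAND2 is a factor needed for sympathetic neurons, and it had 481 and 529 CPM in LAN-1 GSK126, 539.7 and 545 CPM in LAN-1 DMSO, 600.0 and 600.4 CPM in Kelly GSK126, and 1010 and 899.7 CPM in Kelly DMSO. Only the Kelly groups were clearly separated, and HAND2 fell in Kelly (-0.67 on the log2 scale), with an interaction of 0.56 ± 0.12 (SE; edgeR, adjusted p = 0.00293). PHOX2A instead rose in LAN-1, by 0.56, with 149 and 207 CPM in GSK126 and 113.5 and 123.5 CPM in DMSO; its interaction of 0.72 ± 0.17 (SE; adjusted p = 0.00624) was lost in 3 of 8 fits with 1 library left out (adjusted p = 0.199 without LAN-1 GSK126 replicate 2). The count of called factors ran from 1 to 4 over the 8 fits and was 1 by DESeq2, and the lowest, 1, came without LAN-1 GSK126 replicate 2 or without LAN-1 DMSO replicate 1. In bulk RNA, fewer cells of a type and less RNA per cell cannot be told apart.

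Of 6 genes of catecholamine synthesis, storage and breakdown expressed in both lines, MAOA and DDC had a called positive interaction. Over all genes expressed in both the share was 1.1%. The list's medians were 0.22 in LAN-1 and -0.23 in Kelly. MAOA, which degrades monoamines, had 124.5 and 156.5 CPM in LAN-1 GSK126, 68.9 and 71.4 CPM in LAN-1 DMSO, 280.3 and 257 CPM in Kelly GSK126, and 269 and 310.0 CPM in Kelly DMSO. It rose in LAN-1 by 0.98 with overlapping groups in Kelly, and the interaction was 1.09 ± 0.18 (SE; edgeR, adjusted p = 1.59e-05). DDC, the decarboxylase that makes dopamine, had 25.9 and 26.5 CPM in LAN-1 GSK126, 18.1 and 26.1 CPM in LAN-1 DMSO, 153 and 131 CPM in Kelly GSK126, and 281 and 266 CPM in Kelly DMSO. DDC fell in Kelly (-0.95) and its interaction of 1.21 ± 0.30 (SE; adjusted p = 0.00823) was lost without LAN-1 DMSO replicate 1 (adjusted p = 0.208), a fit in which 1 catecholamine gene stayed called.

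TH, the rate-limiting enzyme of the pathway, and DBH, which makes noradrenaline, both fell in Kelly and were barely detected in LAN-1. TH had 9 reads in LAN-1 GSK126, 2 in LAN-1 DMSO, and in Kelly 126 and 140.5 CPM with GSK126 and 293 and 258 CPM with DMSO. The LAN-1 ratio was 5.06 with an exact 95% counting interval of 1.05 to 48.1. The fitted interaction of 3.25 ± 0.93 (SE; edgeR, adjusted p = 0.041) rests on those 11 LAN-1 reads, depends on the prior count, and was lost in 4 of 8 fits with 1 library left out (adjusted p = 0.391 without LAN-1 GSK126 replicate 1). DBH had 4 reads in LAN-1 GSK126 and 3 in LAN-1 DMSO, a ratio of 1.5 (0.253 to 10.2), and in Kelly 352 and 312 CPM with GSK126 and 827 and 821 CPM with DMSO. DBH fell in Kelly (-1.31), and its interaction of 1.86 ± 1.09 (SE; adjusted p = 0.471) was not detectable at the depth of LAN-1.

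Of 7 granins and neuropeptides expressed in both lines, CHGA and GAL had a called positive interaction and none a negative one (against the same 1.1% and 0.533%). GAL encodes the neuropeptide galanin, and it had 60.2 and 94.8 CPM in LAN-1 GSK126, 63.4 and 71.4 CPM in LAN-1 DMSO, 56.6 and 52.7 CPM in Kelly GSK126, and 131 and 101.5 CPM in Kelly DMSO. The LAN-1 groups overlapped and the Kelly groups did not; GAL fell in Kelly (-1.08), and the interaction of 1.22 ± 0.25 (SE; edgeR, adjusted p = 6.40e-04) had an adjusted p of 0.0566 without LAN-1 GSK126 replicate 2. Among 34 genes of the neuronal cytoskeleton, adhesion and synapse, CNTNAP2, MAP1B and PRPH had a called positive interaction and none a negative one (against 1.1% positive and 0.533% negative over all genes expressed in both), with list medians of 0.15 in LAN-1 and 0.07 in Kelly. CNTNAP2, a neurexin-family adhesion protein of axons, fell in Kelly (-0.50) with 539 and 597 CPM in GSK126 and 877 and 737 CPM in DMSO. In LAN-1 it had 63.0 and 54.0 CPM in GSK126 and 41.1 and 36.1 CPM in DMSO, a fold change of 0.61 (adjusted p = 0.0577), so the directions were opposite but the LAN-1 change did not pass. The CNTNAP2 interaction was 1.11 ± 0.21 (SE; adjusted p = 3.17e-04).

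MAP1B, a microtubule-associated protein of growing axons, rose in LAN-1 by 0.40, with 2886 and 2518 CPM in GSK126 and 2185 and 1924 CPM in DMSO. Its interaction of 0.53 ± 0.11 (SE; edgeR, adjusted p = 0.00176) became 0.0642 in adjusted p without LAN-1 DMSO replicate 2. PRPH, the peripheral neuron filament peripherin, rose in LAN-1 by 1.39, with 92.3 and 137 CPM in GSK126 and 39.7 and 45.4 CPM in DMSO, and its Kelly fold change of 0.39 did not pass (adjusted p = 0.0818). The PRPH interaction of 1.00 ± 0.22 (SE; adjusted p = 0.00316) was lost in 2 fits with 1 library left out, with an adjusted p of 0.12 without LAN-1 GSK126 replicate 2.

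MYCN, the amplified oncogene of both lines, fell in Kelly and not by the test in LAN-1. It had 1775 and 1943 CPM in LAN-1 GSK126, 1695 and 1670.0 CPM in LAN-1 DMSO, 1901 and 1929 CPM in Kelly GSK126, and 2399 and 2616 CPM in Kelly DMSO. Treated Kelly libraries came within the range of LAN-1 GSK126, whereas the Kelly controls lay above every LAN-1 library. The Kelly fold change was -0.39, the LAN-1 value was 0.14 (edgeR, adjusted p = 0.362), and the interaction was 0.53 ± 0.11 (SE; adjusted p = 0.00118).

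Of 26 genes of glycolysis and the hypoxia response expressed in both lines, 7 were positive and 1 negative (against 1.1% positive and 0.533% negative over all genes expressed in both). This list, too, was chosen with earlier results of these data known. The median fold change was 0.02 in LAN-1 and -0.30 in Kelly, where 9 of the 26 fell and none rose; over all genes expressed in both it was -0.02 in each line. ALDOA, the muscle-type aldolase, had 751 and 918 CPM in LAN-1 GSK126, 678 and 758 CPM in LAN-1 DMSO, 786 and 748 CPM in Kelly GSK126, and 1034 and 1032 CPM in Kelly DMSO. It fell in Kelly (-0.43) and had an interaction of 0.64 ± 0.12 (SE; edgeR, adjusted p = 3.99e-04). HK2, the inducible hexokinase, had 273 and 279.9 CPM in LAN-1 GSK126, 301 and 282 CPM in LAN-1 DMSO, 78.7 and 78.7 CPM in Kelly GSK126, and 143 and 148 CPM in Kelly DMSO. HK2 fell in Kelly (-0.89) and had an interaction of 0.80 ± 0.17 (SE; adjusted p = 0.00179).

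PFKP, the platelet-type phosphofructokinase, took a different route to a positive interaction, rising in LAN-1 by 1.18 with 28.7 and 33.1 CPM in GSK126 and 11.1 and 16.0 CPM in DMSO. Its interaction of 1.53 ± 0.34 (SE; edgeR, adjusted p = 0.00256) was lost without LAN-1 DMSO replicate 1 (adjusted p = 0.111). PFKL, TPI1, GAPDH and ENO1, named after their values were seen, had interactions of 1.29, 0.46, 0.39 and 0.40, and each was lost in 5 to 7 of 8 fits with 1 library left out; GAPDH and ENO1 have many near-identical pseudogenes, so their counts are uncertain. BNIP3L, a mitophagy receptor and hypoxia target, was the negative member at -0.63 ± 0.18 (SE; adjusted p = 0.0451), lost in 6 such fits. Without LAN-1 DMSO replicate 1 the list had 2 positive calls, without LAN-1 GSK126 replicate 2 it had 3, and by DESeq2 3. Without either Kelly GSK126 replicate, or without LAN-1 DMSO replicate 2, it had 4.

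Of 28 genes of amino acid supply and the unfolded protein response expressed in both lines, 2 fell in LAN-1 and 11 in Kelly (against 1.6% in LAN-1 and 1.98% in Kelly over all genes expressed in both). The interaction was called positive for SLC7A5, AARS, ALDH1L2 and SLC3A2, 4 of the 28, and negative for none (against 1.1% positive and 0.533% negative). SLC7A5, the LAT1 carrier of large neutral amino acids, had 322 and 394.5 CPM in LAN-1 GSK126, 326 and 304 CPM in LAN-1 DMSO, 208 and 182 CPM in Kelly GSK126, and 355 and 339 CPM in Kelly DMSO. The LAN-1 groups overlapped, the Kelly groups did not, and the interaction was 1.00 ± 0.15 (SE; edgeR, adjusted p = 8.34e-07). SLC3A2, the heavy chain that pairs with SLC7A5, named after its values were seen, had an interaction of 0.70 ± 0.21 (SE; adjusted p = 0.0475) and was lost in 5 of 8 fits with 1 library left out (adjusted p = 0.383 without Kelly GSK126 replicate 2). AARS, the alanyl-tRNA synthetase, had 0.62 ± 0.15 (SE; adjusted p = 0.00802; 0.218 without Kelly DMSO replicate 2), and ALDH1L2, a mitochondrial folate enzyme, had 1.25 ± 0.33 (SE; adjusted p = 0.0163; 0.127 without LAN-1 GSK126 replicate 2). The list had 1 called interaction without Kelly DMSO replicate 2 or Kelly GSK126 replicate 2 and 2 without LAN-1 DMSO replicate 2 or LAN-1 GSK126 replicate 2; DESeq2 gave 1.

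Of 42 genes of G1/S transition and DNA replication, 1 fell in LAN-1 and 10 in Kelly (against 1.6% in LAN-1 and 1.98% in Kelly over all genes expressed in both), with medians of -0.05 in LAN-1 and -0.26 in Kelly. The interaction was called positive for 2 of the 42 (against 1.1%). MCM5, a subunit of the replicative helicase, was at 0.80 ± 0.17 (SE; edgeR, adjusted p = 0.00187; 0.0665 without Kelly DMSO replicate 2). CDT1, which loads that helicase, was at 0.91 ± 0.25 (SE; adjusted p = 0.0262) and was lost in 6 of 8 fits with 1 library left out, with an adjusted p of 0.207 without LAN-1 GSK126 replicate 2. RB1, the retinoblastoma protein that restrains the same transition, had a negative interaction of -0.78 ± 0.20 (SE; adjusted p = 0.0169). It rose in Kelly by 0.47 with 89.4 and 131 CPM in GSK126 and 77.7 and 82.1 CPM in DMSO, and the interaction was lost in 5 fits (adjusted p = 0.517 without Kelly GSK126 replicate 2).

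**Figure D3:**
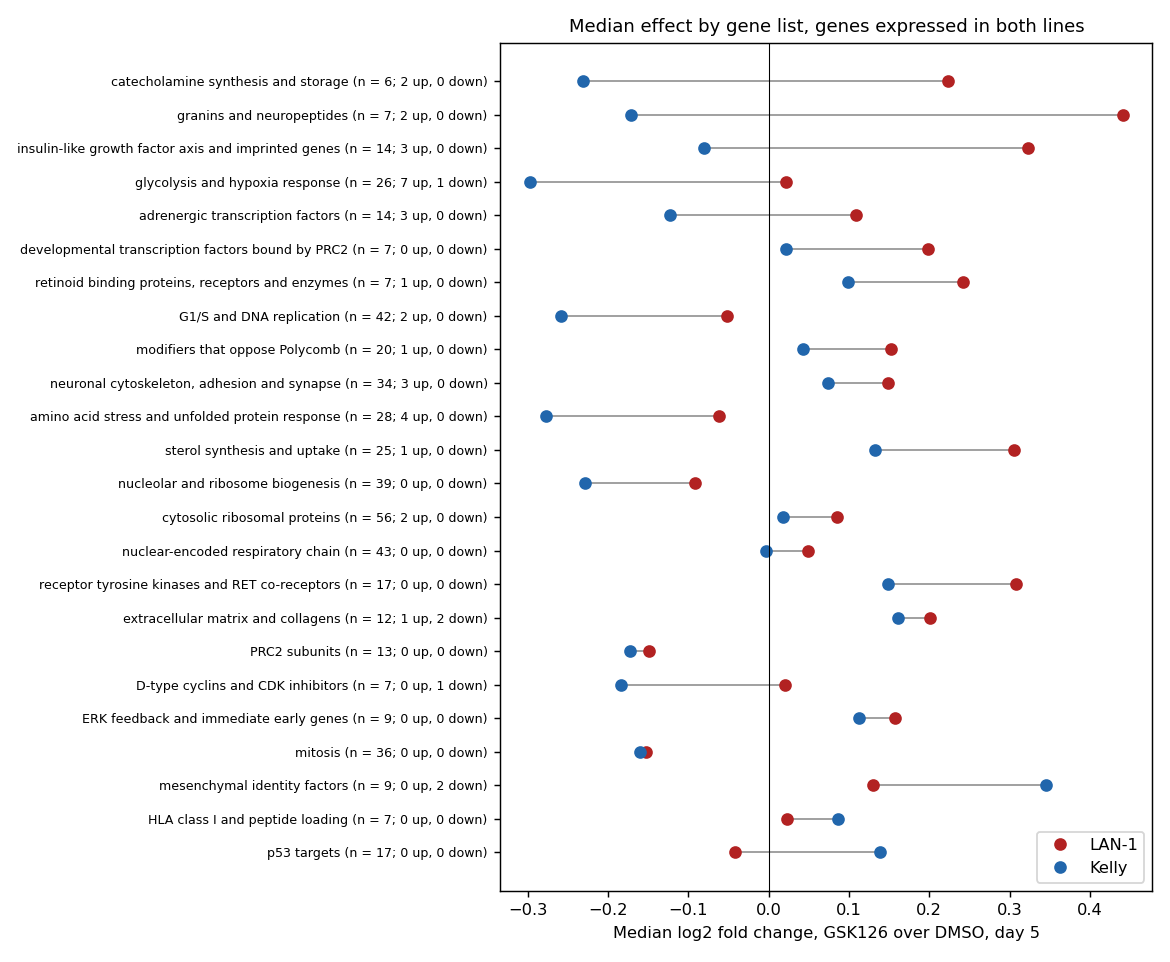
Median day 5 log2 fold change of GSK126 over DMSO for the members of each gene list that both lines expressed, in LAN-1 (red) and Kelly (blue), ordered by the median interaction; each label gives the number of genes and how many had a called positive (up) or negative (down) interaction. The glycolysis list had medians of 0.02 in LAN-1 and -0.30 in Kelly, while the mitosis and PRC2 lists lay at similar values in both lines.

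Several positive interactions came from genes that rose in LAN-1 and differed little between GSK126 and DMSO in Kelly at day 5. NRP1, a co-receptor for semaphorins and VEGF, rose in LAN-1 by 1.62, with 38.5 and 54.0 CPM in GSK126 and 16.0 and 12.6 CPM in DMSO, and had 135 and 129 CPM in Kelly GSK126 and 121 and 139.8 CPM in Kelly DMSO. Its interaction was 1.61 ± 0.30 (SE; edgeR, adjusted p = 1.26e-04). RGS4, a GTPase activator that damps G protein signalling, had 25.9 and 22.0 CPM in LAN-1 GSK126, 9.75 and 7.56 CPM in LAN-1 DMSO, 1793 and 2006 CPM in Kelly GSK126, and 2261 and 1976 CPM in Kelly DMSO. RGS4 rose in LAN-1 by 1.47 yet stayed far below Kelly, and its interaction was 1.62 ± 0.34 (SE; adjusted p = 0.0014). COL6A1, a microfibrillar collagen chain, rose in LAN-1 by 1.22 with 138.5 and 158 CPM in GSK126 and 68.3 and 56.3 CPM in DMSO. This brought it near the Kelly range of 154 to 190.2 CPM, and its interaction was 1.14 ± 0.20 (SE, edgeR adjusted p = 6.40e-05). At day 2 COL6A1 rose in both lines, by 0.92 in LAN-1 (edgeR, adjusted p = 9.09e-04) and 0.53 in Kelly (adjusted p = 0.0483). The Kelly means were 167 CPM with GSK126 and 112 CPM with DMSO at day 2, against 172 and 162 CPM at day 5. The Kelly control was thus higher at day 5.

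Further positive interactions at genes that rose in LAN-1 were lost in at least 1 of the 8 fits with 1 library left out. CHRNB2, a nicotinic receptor subunit, rose in LAN-1 by 1.49, with a Kelly value of -0.0086, and had an interaction of 1.50 ± 0.37 (SE; edgeR, adjusted p = 0.0102; lost in 4 of 8 fits with 1 library left out, at most 0.16). RXRA, the retinoid X receptor, rose by 0.94, with a Kelly value of -0.09, and had 1.03 ± 0.24 (SE; adjusted p = 0.00598; 0.0944 without LAN-1 DMSO replicate 1). OLFM1, a secreted neuronal glycoprotein, rose by 1.03, with a Kelly value of -0.39 that did not pass (adjusted p = 0.0519), and had an interaction of 1.42 ± 0.29 (SE; adjusted p = 9.92e-04; 0.0842 without LAN-1 DMSO replicate 1). KMT2D, the histone H3 lysine 4 methyltransferase of enhancers, rose by 0.76, with a Kelly value of 0.12, and had 0.64 ± 0.16 (SE; adjusted p = 0.0133), lost in 4 fits with at most 0.356 without Kelly DMSO replicate 2. NEDD9, CD248 and DPH1 rose in LAN-1 by 1.24, 1.54 and 1.11, with Kelly values of -0.16, 0.17 and -0.44 that did not pass, and their interactions of 1.40, 1.37 and 1.55 were lost in 2, 5 and 7 of the 8 fits. NEDD9 had LAN-1 means of 55.5 CPM with GSK126 and 22.7 CPM with DMSO at day 5, against 48.0 and 46.2 CPM at day 2. Its LAN-1 difference thus lay mostly in a lower control at day 5. CD248 had 36.9 and 12.1 CPM at day 5, against 22.6 and 13.6 CPM at day 2. DPH1 had 32.4 and 14.6 CPM at day 5, against 24.4 and 20.7 CPM at day 2. OLFM1 rose in Kelly by 0.55 at day 2 (edgeR, adjusted p = 0.0409).

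Of the 47 negative interactions among genes expressed in both lines, 23 were rises in Kelly alone by the test and 10 were falls in LAN-1 alone. NEO1 encodes neogenin, a receptor for netrins and repulsive guidance molecules (chromosome 15, 73344051 to 73597546). It had 104.2 and 105.8 CPM in LAN-1 GSK126, 116 and 109 CPM in LAN-1 DMSO, 41.0 and 51.9 CPM in Kelly GSK126, and 12.0 and 12.2 CPM in Kelly DMSO. It rose in Kelly by 1.94 and had an interaction of -2.05 ± 0.30 (SE; edgeR, adjusted p = 5.18e-07). AGRN, the matrix proteoglycan agrin (chromosome 1, 955500 to 991498), had 144 and 172 CPM in LAN-1 GSK126, 137 and 133 CPM in LAN-1 DMSO, 50.8 and 57.3 CPM in Kelly GSK126, and 17.2 and 12.8 CPM in Kelly DMSO. It rose in Kelly by 1.87 with an interaction of -1.66 ± 0.28 (SE; adjusted p = 2.26e-05). Both genes approached the LAN-1 level in treated Kelly cells and remained below it.

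REST, the repressor of neuronal genes in non-neuronal cells, named after its values were seen, followed the same course. It had 173.5 and 151 CPM in LAN-1 GSK126, 164 and 149 CPM in LAN-1 DMSO, 52.5 and 74.9 CPM in Kelly GSK126, and 29.9 and 23.1 CPM in Kelly DMSO. REST rose in Kelly by 1.29, and its interaction of -1.22 ± 0.24 (SE; edgeR, adjusted p = 4.55e-04) had an adjusted p of 0.11 without Kelly GSK126 replicate 2. PRKAA2, a catalytic subunit of AMP-activated kinase, rose in Kelly by 0.95 with an interaction of -1.42 ± 0.30 (SE; adjusted p = 0.0017; 0.058 without the same library). RAB9B, a GTPase of endosome transport, had -2.21 ± 0.52 (SE; adjusted p = 0.00559; 0.0692 without it). It rose in Kelly by 1.29 from a low level, with 16.4 and 19.9 CPM in GSK126 and 7.47 and 7.30 CPM in DMSO.

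Of 9 mesenchymal identity factors expressed in both lines, VIM and YAP1 had a called negative interaction and none a positive one (against 0.533% negative over all genes expressed in both), and none rose in LAN-1 and 3 in Kelly (against 2.57% in LAN-1 and 2.02% in Kelly). DESeq2 called none of the 9 interactions, and 2 had an unadjusted p under 0.05 in edgeR's test (against 1549 of all 11863 genes tested). The list's median interaction was -0.03, close to that of all genes expressed in both. VIM, the intermediate filament vimentin, had 392 and 399 CPM in LAN-1 GSK126, 317 and 366 CPM in LAN-1 DMSO, 183 and 186 CPM in Kelly GSK126, and 105.4 and 91.8 CPM in Kelly DMSO. VIM rose in Kelly by 0.91, with an interaction of -0.69 ± 0.16 (SE; edgeR, adjusted p = 0.00473; 0.132 without Kelly DMSO replicate 2). YAP1, the Hippo pathway coactivator, rose in Kelly by 0.85 and had -0.47 in LAN-1 (adjusted p = 0.0577), with an interaction of -1.32 ± 0.31 (SE; adjusted p = 0.0048; 0.157 without Kelly DMSO replicate 2).

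Among 12 genes of the extracellular matrix expressed in both lines, COL6A1 was positive, and COL4A1 and FN1 were negative (against 1.1% positive and 0.533% negative over all genes expressed in both). COL4A1, a basement membrane collagen, fell in LAN-1 (-0.43) with 126 and 143 CPM in GSK126 and 168.5 and 191 CPM in DMSO. In Kelly it had 64.8 and 60.3 CPM with GSK126 and 47.8 and 37.7 CPM with DMSO, and the interaction was -0.99 ± 0.23 (SE; edgeR, adjusted p = 0.0048; 0.146 without Kelly DMSO replicate 2). FN1, fibronectin, named after its values were seen, rose in both lines, by 0.39 in LAN-1 and 0.91 in Kelly, and its interaction of -0.52 ± 0.15 (SE; adjusted p = 0.0359) was lost in 6 of 8 fits with 1 library left out. Fibroblast marker sums were higher with GSK126 in both lines, and their part in these values was not tested.

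Genes outside the set that both lines expressed were called in 76 of 3053 cases (2.49%). Over all genes tested, LAN-1 had 434 calls (3.66%; 2.45% rising and 1.21% falling) and Kelly had 581 (4.9%; 3.3% rising and 1.6% falling). Of 760 tested genes whose day 2 DMSO mean reached 10 CPM in LAN-1 and not in Kelly, 60 had a called interaction (7.89%), and 58 of these were negative. Kelly rose by the test in 56 of the 58, LAN-1 rose in 3 and fell in none. Over the 58 genes the median level was 41.9 CPM in LAN-1 GSK126, 40.1 CPM in LAN-1 DMSO, 11.9 CPM in Kelly GSK126 and 0.982 CPM in Kelly DMSO. For 14 of them the Kelly DMSO libraries held no read at day 5, and in 52 the Kelly GSK126 mean stayed below the LAN-1 DMSO mean. A gene near 0 in Kelly has little room to fall there, so the sign of these interactions is partly set by how the genes were grouped. The converse set of 955 genes that Kelly alone expressed had 9 called interactions, all positive, and LAN-1 rose for 25 of them (2.62%), against a Kelly rise for 88 of the 760 genes (11.6%). The 58 negative calls became 61 or 48 without LAN-1 GSK126 replicate 1 or 2, 43 or 46 without LAN-1 DMSO replicate 1 or 2, 43 or 40 without Kelly GSK126 replicate 1 or 2, 41 or 29 without Kelly DMSO replicate 1 or 2, and 22 by DESeq2.

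NOTCH2, a NOTCH receptor tied to the mesenchymal state, was among them (chromosome 1, 120454176 to 120643366). It had 230.1 and 213 CPM in LAN-1 GSK126, 207.5 and 173 CPM in LAN-1 DMSO, 50.0 and 57.3 CPM in Kelly GSK126, and 1.50 and 0.608 CPM in Kelly DMSO. In reads, Kelly held 136 with GSK126 and 3 with DMSO, a ratio of 53.5 with an exact 95% counting interval of 17.9 to 262. The fitted interaction was -5.40 ± 0.47 (SE; edgeR, adjusted p = 3.44e-17). INSR, the insulin receptor, had 165 and 183 CPM in LAN-1 GSK126, 145 and 136 CPM in LAN-1 DMSO, 21.3 and 15.3 CPM in Kelly GSK126, and 0 in both Kelly DMSO libraries. Against the limit that 3 reads over the group allow, INSR was at least 18.1-fold higher in Kelly GSK126 than in Kelly DMSO (edgeR interaction adjusted p = 1.18e-08).

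YBX3, a cold-shock domain RNA-binding protein, had 24.6 and 23.7 CPM in Kelly GSK126 and no read in Kelly DMSO, so that it was at least 24-fold higher, while LAN-1 held 144 and 158 CPM in GSK126 and 166 and 166 CPM in DMSO. By the same measure, LOC440416 was at least 13-fold higher in Kelly GSK126 than in Kelly DMSO, SNX10, a sorting nexin, at least 8.26-fold, FNDC4 at least 5.5-fold and FBN2, the microfibril protein fibrillin 2, at least 4.32-fold. FNDC4 lost its interaction call without Kelly DMSO replicate 2 (edgeR, adjusted p = 0.0782), and FBN2, named after its values were seen, lost it in 6 of 8 fits. The 3 called interactions among 30 tested receptor tyrosine kinases and RET co-receptors were at INSR, PDGFRA and KIT, all negative. Over all genes tested, 0.936% were negative. All 3 belonged to the 760 genes that LAN-1 alone expressed in day 2 DMSO, of which 58 had a negative call. None of the 17 list members that both lines expressed was called by edgeR or DESeq2. At an unadjusted p under 0.05 in edgeR's test there were 6 (against 1549 of all 11863 genes tested). PDGFRA, also a fibroblast marker, had 28.7 and 24.4 CPM in Kelly GSK126 and 5.98 and 0.608 CPM in Kelly DMSO, which differ greatly between the control replicates, and its interaction of -2.18 ± 0.52 (SE; adjusted p = 0.00619) had an adjusted p of 0.432 without Kelly DMSO replicate 2. KIT had 13 reads in Kelly GSK126 and 1 in Kelly DMSO, a ratio of 15.3 (2.3 to 652), and its interaction was lost in 5 of 8 fits. RET, the GDNF receptor, was higher with GSK126 than with DMSO in both lines, by 0.85 in LAN-1 and 1.25 in Kelly. Its Kelly means were 219 CPM with GSK126 and 91.8 CPM with DMSO at day 5, against 238 and 194 CPM at day 2. In Kelly the control was thus lower at day 5 than at day 2, and the treated level was not higher. The LAN-1 means were 152 and 84.4 CPM at day 5, against 134 and 111 CPM at day 2. The RET interaction of -0.40 ± 0.19 (SE, edgeR adjusted p = 0.322) did not pass.

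PHLDA1, a gene induced by ERK signalling, rose in Kelly by 2.06 with 38.5 and 26.7 CPM in GSK126 and 8.97 and 6.69 CPM in DMSO, around the LAN-1 range of 29.8 to 32.9 CPM; its interaction was -2.06 ± 0.40 (SE; edgeR, adjusted p = 4.23e-04). COL3A1, a fibrillar collagen, rose in Kelly by 2.81 with 54.9 and 45.1 CPM in GSK126 and 8.22 and 6.08 CPM in DMSO, against 28.7 and 19.8 CPM in LAN-1 GSK126 and 12.5 and 16.0 CPM in LAN-1 DMSO. Its interaction of -1.98 ± 0.47 (SE; adjusted p = 0.00611) was lost in 2 fits (0.108 without Kelly DMSO replicate 2). NDN, the imprinted gene necdin, named after its values were seen, had -2.57 ± 0.55 (SE; adjusted p = 0.00204; 0.059 without Kelly DMSO replicate 1).

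**Figure D4:**
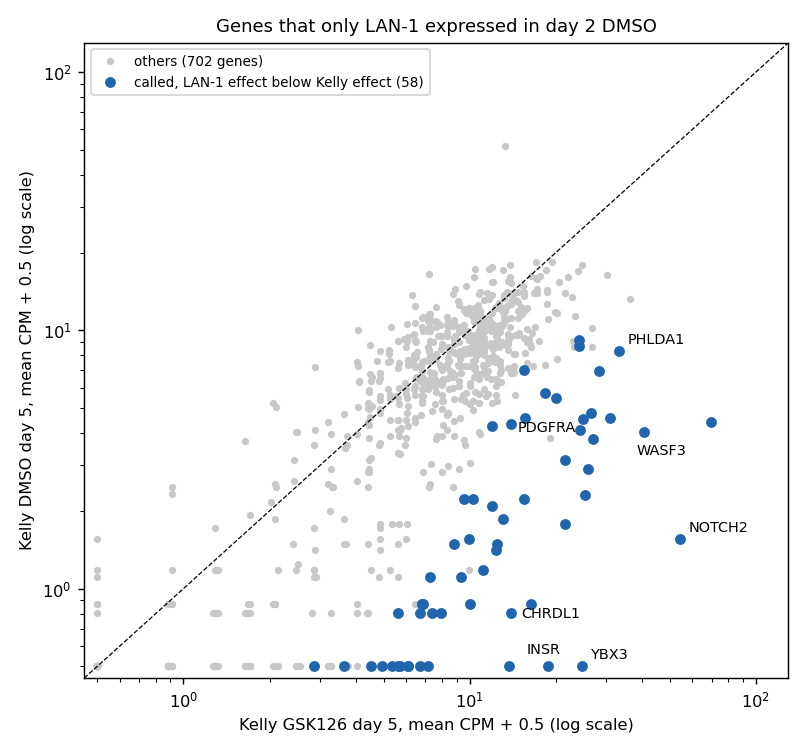
Mean CPM plus 0.5 at day 5, on log axes, in Kelly GSK126 (horizontal) and Kelly DMSO (vertical) for the 760 tested genes that LAN-1 but not Kelly expressed in day 2 DMSO; the dashed line marks equal levels. The 58 called negative interactions (blue) lie to the right of the line, with a median of 11.9 CPM in GSK126 and 0.982 CPM in DMSO.

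Of the positive calls outside the shared set, 9 were at genes that only Kelly expressed, 2 at genes that only LAN-1 expressed and 1 at a gene below 10 CPM in both. CDKN1A, the p21 inhibitor of cyclin-dependent kinases, had 21 reads in LAN-1 GSK126 and 2 in LAN-1 DMSO, a ratio of 11.8 with an exact 95% counting interval of 2.88 to 104, and in Kelly 100.8 and 83.3 CPM with GSK126 and 75.5 and 71.1 CPM with DMSO. The fitted interaction was 3.09 ± 0.79 (SE; edgeR, adjusted p = 0.0136), lost in 2 of 8 fits with 1 library left out (0.213 without LAN-1 DMSO replicate 2). KCNC4, a potassium channel, had 16 reads in LAN-1 GSK126 and 1 in LAN-1 DMSO, a ratio of 18 (2.79 to 754), and was lost in 3 fits. BAHCC1, a reader of histone H3 lysine 27 methylation, had 16.1 and 14.3 CPM in LAN-1 GSK126, 2.09 and 1.68 CPM in LAN-1 DMSO, 114 and 87.1 CPM in Kelly GSK126, and 73.2 and 69.3 CPM in Kelly DMSO. BAHCC1 rose in both lines, by 2.96 in LAN-1 and 0.49 in Kelly, and its interaction of 2.46 ± 0.59 (SE; adjusted p = 0.00629) was lost in 2 fits (0.103 without LAN-1 DMSO replicate 1).

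No interaction was called by edgeR's test or by DESeq2 in the following lists of genes expressed in both lines. They held 36 mitosis genes, 39 nucleolar genes, 43 nuclear genes of the respiratory chain, 13 PRC2 subunits and 7 genes of HLA class I and peptide loading. At an unadjusted p under 0.05 in edgeR's test these lists held 5, 4, 3, 1 and 1 genes. Over all 11863 genes tested at day 5 there were 1549. Mitosis genes had medians of -0.15 in LAN-1 and -0.16 in Kelly, and PRC2 subunits -0.15 and -0.17. Of 25 sterol genes, 7 rose in LAN-1 and none in Kelly (against 2.57% in LAN-1 and 2.02% in Kelly). Their median fold change was above 0 in both lines, at 0.31 in LAN-1 and 0.13 in Kelly, with a median interaction of 0.11. The interaction was called positive for 1 of the 25 and negative for none (against 1.1% and 0.533% over all genes expressed in both). DHCR7 makes cholesterol from its immediate precursor; it rose in LAN-1 by 0.79 and had 0.28 in Kelly (adjusted p = 0.357), and its interaction of 0.50 ± 0.20 (SE) missed the threshold (edgeR, adjusted p = 0.228). Of 56 cytosolic ribosomal protein genes, RPL18 and RPLP2 were positive at 0.50 ± 0.14 and 0.52 ± 0.15 (SE), against 1.1% positive over all genes expressed in both lines. Within LAN-1 both had their highest level in GSK126 replicate 2, without which the adjusted p was 0.422 and 0.423 (edgeR), and both have many pseudogene copies.

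HLA-B and COL1A1 show how low counts limit the comparison. HLA-B, a class I antigen-presenting molecule, rose in Kelly by 3.63 with 34.4 and 26.0 CPM in GSK126 and 2.24 and 2.43 CPM in DMSO, and LAN-1 held 1 read in GSK126 and none in DMSO, so that no fold can be given there. COL1A1, a type I collagen chain, rose in Kelly by 2.29 with 125 and 116 CPM in GSK126 and 29.9 and 20.1 CPM in DMSO. In LAN-1 it had 9 reads in GSK126 and none in DMSO, which is at least 3.37-fold higher. Neither interaction passed (edgeR, adjusted p = 0.928 for HLA-B and 0.409 for COL1A1), and differences in either direction were not detectable at this depth.

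The same interaction in the day 2 libraries was called for 1 gene, AGRN (0.00843% of genes tested), at -1.57 (edgeR, adjusted p = 0.0118), with 619 genes at an unadjusted p under 0.05 at day 2, against 1549 at day 5. No gene was called at day 2 by DESeq2, nor with replicate 1 of any of the 4 day 2 groups left out. Of the 144 genes called at day 5 and expressed in both lines, 87 (60.4%) had the same sign at day 2, against 48.5% of all 8810. The 97 positive genes had a median interaction of 0.80 at day 5 and 0.05 at day 2, and the 47 negative ones -0.91 at day 5 and -0.11 at day 2.

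A direct test of day 5 minus day 2 called 11 genes (0.0927% of those tested), 9 with a higher (0.0759%) and 2 with a lower interaction at day 5 (0.0169%), and had 1070 at an unadjusted p under 0.05. The 11 were named after their values were seen. Their number was 113 without LAN-1 GSK126 day 5 replicate 1, 7 without Kelly GSK126 day 5 replicate 1, 6 and 5 without LAN-1 DMSO day 5 replicate 1 or 2, and 2 by DESeq2. IGF2 moved most firmly, by 2.13 ± 0.25 on the log2 scale (SE; edgeR, adjusted p = 1.34e-09). Its Kelly fold change was 0.02 at day 2 and -1.42 at day 5. The LAN-1 fold change was -0.30 at day 2 (adjusted p = 0.755) and 0.39 at day 5 (adjusted p = 0.088). The Kelly estimate for IGF2 thus changed more between days than the LAN-1 estimate. The LAN-1 value passed on neither day, and the change between days was not tested in either line alone. Kelly levels at day 2 were 325 ± 13.5 CPM with GSK126 and 317 ± 83.5 CPM with DMSO (SD, n = 2). The Kelly means at day 5 were 169 CPM with GSK126 and 453 CPM with DMSO. IGFBP2 moved by 1.67 (adjusted p = 0.00358), SLC7A5 by 1.08 (adjusted p = 0.00358) and CHGA by 0.88 (adjusted p = 0.0104). IGF2 and SLC7A5 stayed called with each of the 16 libraries left out in turn, IGFBP2 reached 0.0524 without LAN-1 DMSO day 5 replicate 1, and CHGA was lost in 3 of the 16 fits (at most 0.0779).

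Of the remaining 7, each was lost in at least 3 of the 16 fits. HUWE1, a ubiquitin ligase, SRRM2, a splicing scaffold, NEDD9, a focal adhesion scaffold, KIAA0754 and FAM163A moved by 0.82, 0.69, 1.87, 1.50 and 1.55 and were lost in 6, 11, 13, 8 and 10 of the 16 fits. KIAA0754 lies within the MACF1 locus, so its reads may belong to either. The LAN-1 DMSO mean of NEDD9 was 46.2 CPM at day 2 and 22.7 CPM at day 5, while its LAN-1 GSK126 mean was 48.0 and 55.5 CPM. The falls were at CHRDL1, a secreted BMP antagonist, and WASF3, an actin regulator, at -6.34 and -3.25, lost in 3 and 6 fits. CHRDL1 was near 0 in Kelly DMSO at day 5, with 1 read against 34 with GSK126, a ratio of 40.1 (6.73 to 1630). WASF3 was low there, at 2.24 and 4.86 CPM, against 46.7 and 33.6 CPM in Kelly GSK126.

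**Figure D5:**
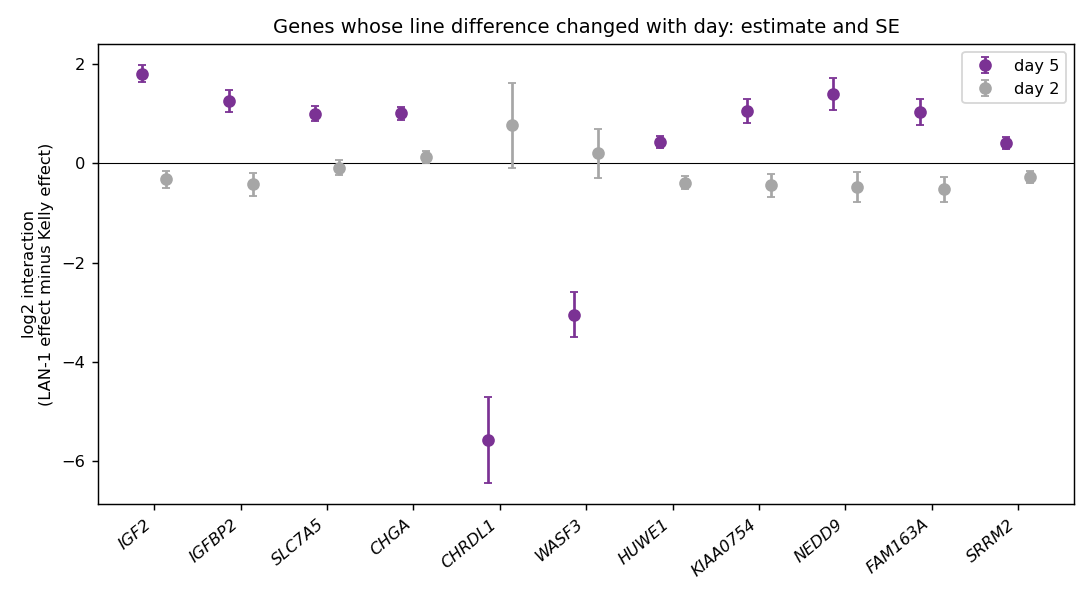
Log2 interaction (LAN-1 effect minus Kelly effect) with its SE at day 5 (purple) and day 2 (grey) for the 11 genes whose interaction differed between days in the edgeR test. IGF2, IGFBP2, SLC7A5 and CHGA lie at or above 1.00 at day 5 and between -0.42 and 0.13 at day 2, while CHRDL1 and WASF3 are far below 0 at day 5 only.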

How the data were processed

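The authors deposited whole-read counts per gene symbol in 1 table of 16 libraries, made with FastQC, TopHat2 and featureCounts on GRCh37 (hg19) per the submitters' processing notes; no version is stated there, and the annotation and strand setting are not given in the sources used here. All 16 libraries were fitted in edgeR 4.0.16 (R 4.3.3) with TMM factors of 0.9774 to 1.026, a minimum count of 10 in filterByExpr, 1 mean for each of 8 groups and robust quasi-likelihood tests with 8 residual degrees of freedom; the common biological variation was 5.31%. P-values were adjusted by Benjamini-Hochberg over all 11863 genes tested, and a call is an adjusted p under 0.05. SE is the absolute log2 value divided by the square root of F, and CPM is counts per 1e6 of the TMM-scaled total over tested genes. The members and gene lists were chosen with earlier results of these data known. Genes were named by a rule: 12 fixed genes, the 10 largest called interactions each way among genes expressed in both lines, all opposite calls, the 5 largest each way outside that set with at least 10 CPM in a group, and up to 3 called members of each of 32 lists; some results under this rule are not reported here. Gene positions are GRCh37 and matched 21873 of 25728 symbols directly and 1426 by synonym; promoters are GRCh38.p14. Folds of genes at 0 use a floor of 3 counts over the group, and intervals cover counting error only. DESeq2 1.42.0, other filters, a GC correction and single left-out libraries were tried. The code was tested on simulated data.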

Additional observations from a re-analysis of the deposited data

Results flagged for a closer look

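A test of the difference itself, edgeR's interaction of line and GSK126 at day 5, marked 66 of the 72 genes chosen by the naming rule. The log2 interaction (LAN-1 effect minus Kelly effect) is given here for those reported. Among adrenergic, transmitter and neuronal genes the values were CHGA 1.01, HAND2 0.56, PHOX2A 0.72, TH 3.25, DDC 1.21, MAOA 1.09, GAL 1.22, CNTNAP2 1.11, MAP1B 0.53, PRPH 1.00, CHRNB2 1.50, OLFM1 1.42 and RGS4 1.62. Genes of growth, metabolism and protein synthesis had MYCN 0.53, HK2 0.80, ALDOA 0.64, PFKP 1.53, SLC7A5 1.00, AARS 0.62, ALDH1L2 1.25, MCM5 0.80, CDT1 0.91, RPL18 0.50, RPLP2 0.52 and FTL 0.61. Other positive values were DLK1 1.21, IGF2 1.81, NRP1 1.61, TMEM18 1.60, DPH1 1.55, NEDD9 1.40, CD248 1.37, IGFBP2 1.26, CYTH3 1.29, KCNC4 3.69, CDKN1A 3.09, BAHCC1 2.46, BHLHE40 2.46, COL6A1 1.14, KMT2D 0.64 and RXRA 1.03. The negative values, in which the Kelly effect lay above the LAN-1 effect, were RAB9B -2.21, NEO1 -2.05, FRMD6 -1.98, AGRN -1.66, THAP5 -1.59, ACBD7 -1.58, PRKAA2 -1.42, TMTC1 -1.39, YAP1 -1.32, ARMCX2 -1.27, YBX3 -8.20, SNX10 -7.39, INSR -7.35, LOC440416 -6.82, FNDC4 -6.24, NOTCH2 -5.40, VIM -0.69, COL4A1 -0.99, COL3A1 -1.98, PDGFRA -2.18, KIT -3.64, PHLDA1 -2.06 and RB1 -0.78. Values of genes with 0 to 3 reads in a group, such as YBX3, INSR, SNX10, LOC440416, FNDC4, KIT, KCNC4, CDKN1A, NOTCH2 and TH, depend on the prior count, and 44 of the 66 lost their call with at least 1 library left out.

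The test of the day 5 interaction minus the day 2 interaction marked 11 genes, with changes on the log2 scale of IGF2 2.13, IGFBP2 1.67, SLC7A5 1.08, CHGA 0.88, CHRDL1 -6.34, WASF3 -3.25, HUWE1 0.82, KIAA0754 1.50, NEDD9 1.87, FAM163A 1.55 and SRRM2 0.69. IGF2 and SLC7A5 were called in each of the 16 fits with 1 library left out, and the other 9 were lost in at least 1.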

How the results depend on the processing

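The day 5 interaction count of 220 was 231 with DESeq2-style size factors in edgeR, 243 without a filter on low counts, 228 from the day 5 libraries alone and 219 with a GC correction, which kept 175 of the 220 genes. With DESeq2's own test it was 59, with 34 for genes expressed in both lines, 163 in Kelly, 107 in LAN-1, 1 in opposite directions, 2 for day 5 minus day 2 and 0 at day 2. With the replicate number as a block within lines it was 195, and 122 for genes expressed in both; same-numbered libraries deviated together at r of -0.123 to 0.125, so the numbers were not taken to pair the samples. The GC correction raised the Kelly count to 980 (955 with the block) and that for day 5 minus day 2 to 18 in both fits. Leaving out 1 library each gave 117 to 479 for the interaction, 73 to 396 for genes expressed in both, 239 to 709 in Kelly, 139 to 735 in LAN-1, 0 to 18 in opposite directions, 5 to 113 for day 5 minus day 2 and 0 to 2 at day 2. Day 2 also gave 2 without the filter or with its own libraries alone. The GC correction without LAN-1 GSK126 day 5 replicate 2, chosen after seeing the data, gave 1123 in Kelly, 211 in LAN-1 and 18 for day 5 minus day 2. Among the 72 named genes only EZH2 changed sign, from -0.03 to 0.0054 without the filter, 0.14 with the GC correction, 0.14 with the block and GC correction, -0.1043 to 0.0577 with 1 library left out (positive without Kelly DMSO replicate 2, LAN-1 DMSO replicate 2 or LAN-1 GSK126 replicate 2) and 0.13 with that library left out and GC corrected; it was never called. DESeq2 left 36 of the named genes below the threshold that edgeR called. The cause of these changes was not tested. Genes with few reads in 1 line are limited by depth, and with 2 libraries a group no single library can be checked against more than 1 other.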

Other observations

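Some called genes with large interactions belong to none of the gene groups described and are given as values. THAP5, a THAP-domain zinc finger protein, had 18.2 and 13.2 CPM in LAN-1 GSK126, 27.2 and 31.1 CPM in LAN-1 DMSO, 24.6 and 37.4 CPM in Kelly GSK126, and 17.2 and 19.5 CPM in Kelly DMSO. Neither line passed alone, the interaction was -1.59 (edgeR, adjusted p = 0.00968), and it was lost in 3 of 8 fits with 1 library left out. ARMCX2 rose in Kelly, with 89.4 and 77.2 CPM in GSK126 and 44.1 and 49.2 CPM in DMSO, against 28.0 and 27.6 CPM in LAN-1 GSK126 and 42.5 and 32.8 CPM in LAN-1 DMSO; its interaction of -1.27 (adjusted p = 0.0045) had an adjusted p of 0.163 without LAN-1 DMSO replicate 1. ACBD7, an acyl-CoA binding protein, rose in Kelly, with 27.1 and 28.3 CPM in GSK126 and 12.0 and 9.73 CPM in DMSO, and its interaction of -1.58 (adjusted p = 0.00565) was lost in 3 fits. FRMD6, a regulator of the Hippo pathway, and TMTC1 had interactions of -1.98 and -1.39, lost in 6 and 4 fits.

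BHLHE40, a transcriptional repressor induced by hypoxia, rose in LAN-1, with 14.7 and 14.3 CPM in GSK126 and 2.79 and 5.88 CPM in DMSO, and had 6.56 and 9.17 CPM in Kelly GSK126 and 16.4 and 9.73 CPM in Kelly DMSO. Its interaction was 2.46 (edgeR, adjusted p = 0.015), lost in 3 fits. TMEM18 had an interaction of 1.60 with a change past the threshold in neither line alone, and it was lost in 5 fits.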
